A study of Homo sapiens with 10 samples.

Results

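Heat shock proteins of the cytosol, and the factor that controls them, were described across 6 RNA-seq libraries of 2 human lymphoma lines. The 10 genes were chosen by symbol, by a rule that sets no threshold on measured values but was drawn up with earlier results of these data known, from the 25275 symbols that both deposited expression tables hold: HSP90AA1, HSP90AB1, HSPA8, HSPA1A, HSPA1B, HSPH1, DNAJB1, HSPD1, HSPE1 and HSF1. The group is called cytosolic, but HSPD1 and HSPE1 encode the chaperonin and co-chaperonin of the mitochondrial matrix, and HSF1 encodes a transcription factor. The remaining 7 genes encode HSP90, HSP70, HSP110 and J-domain proteins that work mainly in the cytosol.

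The libraries came from OCI-LY10 and TMD8, established lines that the labels class as ABC DLBCL, the form of diffuse large B-cell lymphoma that resembles activated B cells. In OCI-LY10, 1 library was labelled STAT3 shRNA 10, 1 was labelled STAT3 shRNA 16 and 1 was labelled control shRNA. In every case the cells carried a doxycycline-inducible shRNA and had received doxycycline, at 20 ng/ml, over 2 days, so the control was exposed to the drug as well. TMD8 has samples with the same 3 shRNAs, but its 3 columns bear no names, and they are given by position with no shRNA assigned. The 4 STAT3 ChIP samples of the study were not analysed here.

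Chaperones bind proteins that are not yet folded, or that have lost their fold, and release them through cycles of ATP binding and hydrolysis. J-domain proteins such as DNAJB1 pass a client to HSP70 and set off its ATP hydrolysis, HSP110 proteins such as HSPH1 exchange the nucleotide, and HSP90 takes on clients at a later stage, among them many kinases and transcription factors that B-cell lymphoma cells depend on. Under heat and other protein-damaging stress, HSF1 forms trimers and binds heat shock elements, runs of alternating GAA and TTC units, in the promoters of chaperone genes. Some of these genes, such as HSPA8 and HSP90AB1, are also transcribed at a high level without stress, whereas HSPA1A and HSPA1B are known for strong induction by heat.

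Promoters of 9 of the 10 genes were found in a table of RefSeq promoters on build GRCh38.p14, with 15 entries in all because some genes have several annotated starts. The sequences below are the 250 bases before a start, read 5′ to 3′ on the strand of the gene. They are shown because they hold GAA and TTC units of the kind found in heat shock elements. Capitals mark every match to 3 units (TTCNNGAANNTTC or, read on the other strand, GAANNTTCNNGAA) or to 2 units (GAANNTTC or TTCNNGAA), where N is any base, and overlapping matches run together.
HSP90AA1, chr14:102087045-102087294, minus strand: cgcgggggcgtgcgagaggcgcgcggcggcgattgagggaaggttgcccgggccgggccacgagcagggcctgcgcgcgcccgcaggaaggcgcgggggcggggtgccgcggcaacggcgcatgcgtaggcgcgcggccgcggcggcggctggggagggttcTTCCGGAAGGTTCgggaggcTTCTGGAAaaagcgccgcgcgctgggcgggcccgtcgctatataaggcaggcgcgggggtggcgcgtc
HSP90AB1, chr6:44247693-44247942, plus strand: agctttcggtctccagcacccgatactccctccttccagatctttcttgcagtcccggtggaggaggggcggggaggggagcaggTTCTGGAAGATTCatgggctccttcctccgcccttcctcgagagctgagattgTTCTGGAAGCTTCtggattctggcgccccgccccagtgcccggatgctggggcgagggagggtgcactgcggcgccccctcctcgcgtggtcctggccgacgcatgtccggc
HSPA8, chr11:123062137-123062386, minus strand: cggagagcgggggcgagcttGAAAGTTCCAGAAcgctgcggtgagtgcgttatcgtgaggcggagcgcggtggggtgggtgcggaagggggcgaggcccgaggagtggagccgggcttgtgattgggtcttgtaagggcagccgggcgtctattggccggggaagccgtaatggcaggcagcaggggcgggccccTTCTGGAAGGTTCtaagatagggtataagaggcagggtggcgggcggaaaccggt
HSPD1, chr2:197499841-197500090, minus strand: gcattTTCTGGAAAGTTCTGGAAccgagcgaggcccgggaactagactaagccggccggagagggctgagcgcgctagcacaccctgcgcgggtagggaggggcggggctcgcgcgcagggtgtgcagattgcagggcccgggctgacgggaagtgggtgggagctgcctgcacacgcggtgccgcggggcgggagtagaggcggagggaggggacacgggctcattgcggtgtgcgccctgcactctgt
DNAJB1, chr19:14518398-14518647, minus strand: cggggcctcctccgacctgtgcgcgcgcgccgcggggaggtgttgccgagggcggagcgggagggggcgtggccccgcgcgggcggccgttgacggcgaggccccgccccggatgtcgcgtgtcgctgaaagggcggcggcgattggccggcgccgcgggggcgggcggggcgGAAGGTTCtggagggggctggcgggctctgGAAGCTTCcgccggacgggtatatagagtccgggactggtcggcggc
HSPA1A, chr6:31815293-31815542, plus strand: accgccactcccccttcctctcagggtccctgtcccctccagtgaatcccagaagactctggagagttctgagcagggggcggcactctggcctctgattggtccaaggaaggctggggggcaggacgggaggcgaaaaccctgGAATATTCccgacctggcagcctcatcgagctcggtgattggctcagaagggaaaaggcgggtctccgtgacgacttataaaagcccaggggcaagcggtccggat
HSPA1B, chr6:31827488-31827737, plus strand: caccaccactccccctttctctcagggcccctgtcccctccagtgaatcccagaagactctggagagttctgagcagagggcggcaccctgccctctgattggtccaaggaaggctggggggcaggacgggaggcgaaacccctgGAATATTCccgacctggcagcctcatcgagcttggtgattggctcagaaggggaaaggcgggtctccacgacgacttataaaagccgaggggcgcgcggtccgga

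The 3-unit element was found in 4 of the 9 genes, namely HSP90AA1, HSP90AB1, HSPA8 and HSPD1. Counted by promoter, it was in 4 of the 15 entries of the 9 genes and in 172 of the 35116 promoters of the table (0.49%). Matches were counted over 300 bases that include the first 50 after the start. HSP90AA1 has it 88 bases before the start, HSP90AB1 has it 165 and 112 bases before, and HSPA8 has it 230 and 55 bases before. In HSPD1 the matches stand before the more downstream of its 2 annotated starts, where those at 245 and 240 bases before the start overlap and form a single longer run. HSPA1A has the 2-unit form with GAA first 106 bases before the start, HSPA1B has it 105 bases before, and DNAJB1 has it 77 and 47 bases before. Over all promoters, 6.77% hold the 2-unit form with GAA first and 7.74% the form with TTC first. No match was found in the entries of HSPH1 and HSPE1, which says only that these letters are not in those windows. A STAT site searched as TTCNNNGAA, which reads the same on both strands, was in 0 of the 9 genes, over all 15 entries, and in 7.66% of all promoters. A match is a description of the letters and does not show binding.

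The HSPA1A and HSPA1B sequences above were identical at 235 of 250 aligned bases (94%). HSPD1 and HSPE1 lie head to head, and their closest annotated starts are 105 bases apart, so their upstream sequences overlap.

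The libraries differed well beyond the chaperone genes. Each contrast of the STAT3 shRNA libraries with the library labelled control spans that difference. Deposited values are FPKM, fragments scaled to gene length and to library size, so levels can be compared between genes on a per-length scale. Small RNA genes took 57.8% and 58.1% of the FPKM sum with STAT3 shRNA 10 and 16 and 49.0% in the library labelled control, and 22.5% to 43.3% in TMD8. Relative to the shRNA 10 library, sequencing depth was estimated at 0.73 for shRNA 16 and 1.52 for the library labelled control, and absolute depth is unknown. Over 11000 genes outside the small RNAs, the Pearson correlation of log2(FPKM + 1) was 0.994 between the STAT3 shRNA libraries, 0.845 between either of them and the library labelled control, and 0.935, 0.938 and 0.960 between that library and the TMD8 columns. Of 167 genes at 0.5 FPKM or less in both STAT3 shRNA libraries and at 5 or more in the library labelled control, 109 were at 5 FPKM or more in every TMD8 column. When genes tied to particular chromosomes were compared, 1 of the 3 OCI-LY10 libraries did not match the other two. The label of that library is therefore in doubt, and with it what each difference from it, and each count of OCI-LY10 values against TMD8 values, can mean. Values below refer to libraries as labelled, and the part of these library-wide differences in any chaperone result was not tested.

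Markers of B cells were present in all 6 libraries, with 9 of 9 at 1 FPKM or more in each and sums of 3539 and 3883 FPKM with the STAT3 shRNAs, 2035 FPKM in the library labelled control and 2412 to 2889 FPKM in TMD8. Single B-cell markers went both ways, since CD79B had 1139 and 1226 FPKM with the STAT3 shRNAs against 226 in the library labelled control, and CD22 had 23.0 and 29.3 against 62.1. Plasma cell markers summed to 76.3 and 76.6 FPKM with the STAT3 shRNAs, to 47.0 in the library labelled control and to 73.6 to 88.1 in TMD8. Their sum hides opposite members, since TNFRSF17 had 39.8 and 35.0 FPKM against 1.57, while PRDM1 had 0.685 and 0.585 against 9.39 and SDC1 had 0.251 and 0.301 against 3.87. At 1 FPKM or more were 2 plasma cell markers with each STAT3 shRNA and 4 in the library labelled control.

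Markers of other cell types were followed as well. Sums of T and NK cell markers were 0.417 and 0.457 FPKM with the STAT3 shRNAs, against 0.711 in the library labelled control, with CD3D and CD2 at 0 in every column, and TMD8 held 0.815 to 1.43. Erythroid markers reached at most 0.135 FPKM in any column. Myeloid markers summed to 2.39 and 1.55 FPKM with the STAT3 shRNAs, against 48.2 in the library labelled control and 23.4 to 34.9 in TMD8, and FCN1 was at 0 throughout. CD68 alone held 1.41 and 0.927 of those sums with the STAT3 shRNAs, against 46.6 in the library labelled control. Epithelial markers summed to 5.48 and 5.98 FPKM, against 34.8 in that library and 19.3 to 20.7 in TMD8. In that list CDH1 had 0.0102 and 0 FPKM with the STAT3 shRNAs against 32.6, whereas EPCAM had 4.39 and 4.39 against 0, and KRT19 was at 0 throughout. Fibroblast markers summed to 0.110 and 0.145 FPKM, against 6.57 in that library and 5.0 to 6.73 in TMD8. Melanocytic and neural markers summed to 109 and 123 FPKM with the STAT3 shRNAs, against 3.15 in that library and 2.20 to 4.00 in TMD8. Of these sums CDH2 alone held 94.7 and 107 FPKM with the STAT3 shRNAs, against 0.134 in the library labelled control, and SOX10 was at 0 in the 3 OCI-LY10 libraries. Both are established lymphoma lines, so these sums are levels of listed genes, and whether cells of another type were present was not tested. In bulk RNA, fewer cells of a type and less RNA per cell cannot be told apart.

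STAT3, the target of the shRNAs, stood at 11.1 and 10.6 FPKM with STAT3 shRNA 10 and 16, against 16.5 FPKM in the library labelled control. The difference on log2(FPKM + 1) was -0.56 (SE 0.10, limma adjusted p = 0.0465), but adjusted p was 0.0508 with a pseudocount of 0.1 FPKM, 0.0688 with low genes kept in the fit and 0.0901 after rescaling to the FPKM sum outside small RNA genes. TMD8 columns 1, 2 and 3 held 120.3, 24.3 and 22.5 FPKM of STAT3.

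Across the 10 genes, HSPA8, HSP90AB1 and HSF1 were higher with the STAT3 shRNAs than in the library labelled control, HSP90AA1 was lower, and 4 genes (HSPH1, DNAJB1, HSPD1 and HSPE1) did not pass. HSPA1A and HSPA1B were listed at 0 everywhere and were not tested, so 8 of the 10 genes passed the filter of 1 FPKM on the mean. The test was limma on log2(FPKM + 1) with Benjamini-Hochberg adjustment over the 11162 genes tested, at a threshold of 0.05. Of all genes tested, 20.3% were called higher, 17.4% lower and 37.7% in either direction, so the 3 higher and the 1 lower of 8 stand against a contrast in which calls are common. The median difference of the 8 genes was -0.26, beside 0.06 over all genes tested. Each label was carried by 1 library, so a p-value rests on how far STAT3 shRNA 10 and 16 differ from each other. That difference is taken in the gene itself (1 residual degree of freedom) and over all genes tested (1.64 prior degrees of freedom). HSP90AB1 differed by -0.0017 on the log2 scale between the shRNAs, so its SE of 0.11 comes mainly from other genes. The spread may be technical or may come from the shRNAs, and the fit assigned it to the control as well.

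**Figure D1:**
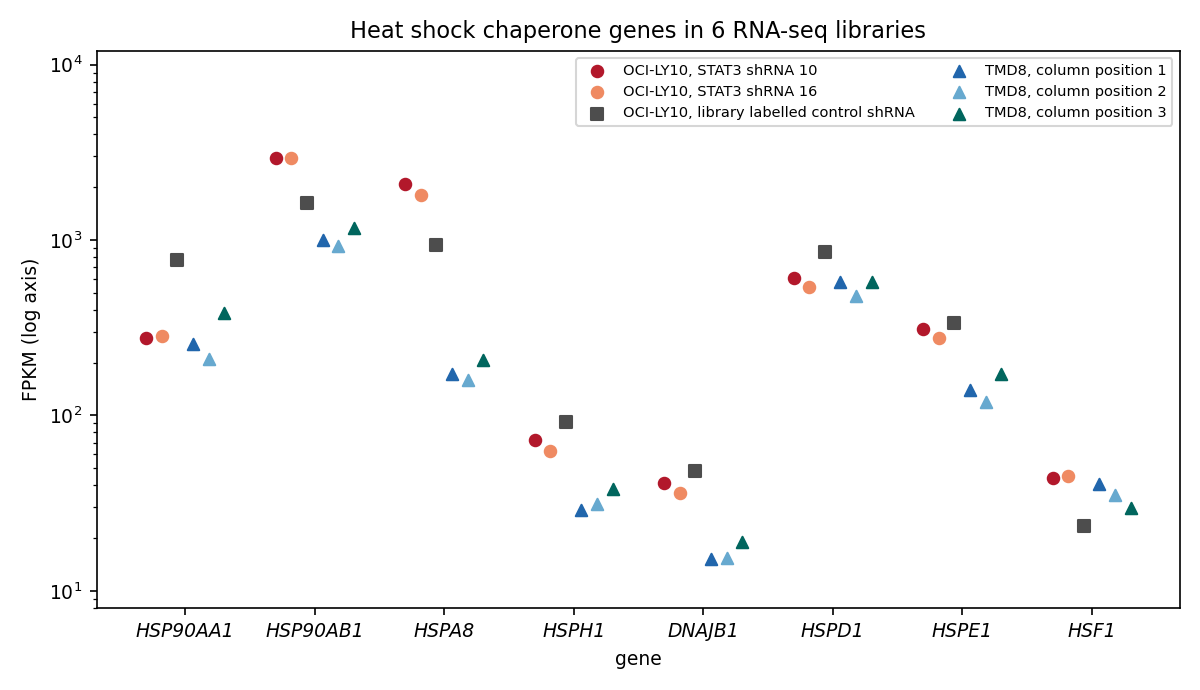
FPKM of the 8 chaperone genes above 0 in each library, on a log axis. Points stand for single libraries, with OCI-LY10 by label and TMD8 by column position. HSPA8 lies at 942 FPKM or more in OCI-LY10 and at 208 FPKM or less in TMD8, and HSP90AA1 is at 275 and 283 FPKM with the STAT3 shRNAs, against 767 FPKM in the library labelled control.

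**Figure D2:**
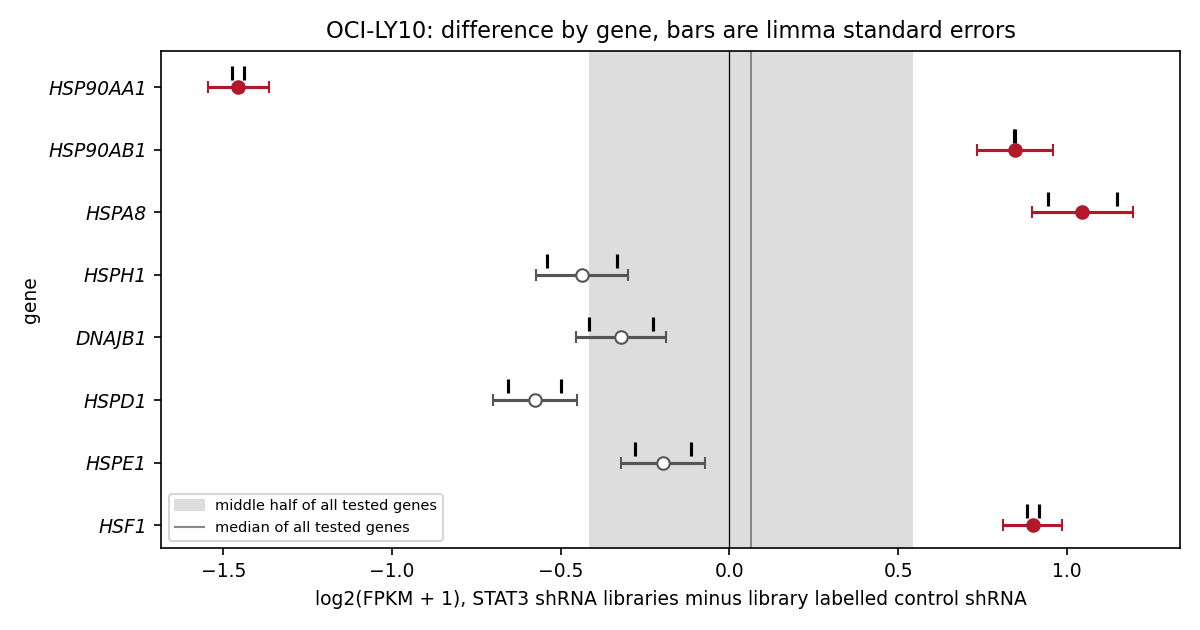
Difference of log2(FPKM + 1) between the STAT3 shRNA libraries and the library labelled control, by gene. Circles are the limma estimates with standard errors (filled where adjusted p is below 0.05), short ticks are the values for each shRNA, and the grey band holds the middle part of all genes tested, between the lower and upper quartiles at -0.41 and 0.54. HSP90AA1 at -1.46 lies left of the band, as do HSPD1 at -0.58 and HSPH1 at -0.44, which did not pass, and HSP90AB1, HSPA8 and HSF1 lie right of it.

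The 2 cytosolic HSP90 genes went opposite ways. HSP90AA1, which encodes the stress-inducible HSP90 alpha, measured 275 and 283 FPKM with STAT3 shRNA 10 and 16, against 767 FPKM in the library labelled control. TMD8 columns 1, 2 and 3 held 255, 209.5 and 381 FPKM. Both STAT3 shRNA libraries were thus far below the library labelled control and within the range of TMD8. Their mean of 279 FPKM ± 5.1 (SD, n = 2) was 36.4% of the value in the library labelled control, with a log2 difference of -1.46 (SE 0.09, limma adjusted p = 0.0127). The call held in 9 of 9 alternative settings that gave a test, with adjusted p from 0.00264 to 0.0331.

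HSP90AB1, which encodes the constitutive HSP90 beta, measured 2925 and 2922 FPKM with STAT3 shRNA 10 and 16, against 1627 FPKM in the library labelled control. TMD8 columns held 1002, 922 and 1173 FPKM. Here both STAT3 shRNA libraries were above the other 4 libraries, and the library labelled control was above TMD8. The mean of 2924 FPKM ± 2.47 (SD, n = 2) was 179.8% of the library labelled control, a log2 difference of 0.85 (SE 0.11, limma adjusted p = 0.0296). With low genes kept in the fit the difference no longer passed (adjusted p = 0.0656).

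The balance between the HSP90 genes was unlike in the libraries. HSP90AB1 exceeded HSP90AA1 by 10.6 and 10.3 times with STAT3 shRNA 10 and 16, against 2.12 times in the library labelled control, and by 3.92, 4.40 and 3.08 times in TMD8. HSP90AA1 made up 8.60% and 8.82% of the HSP90 sum with the STAT3 shRNAs, against 32.05% in the library labelled control, and 18.5% to 24.5% in TMD8. The sum of both genes was 3201 and 3205 FPKM with the STAT3 shRNAs, against 2394 FPKM in the library labelled control. These ratios are taken within a library, so a scaling factor common to all genes of a library does not change them, and they were not tested separately.

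**Figure D3:**
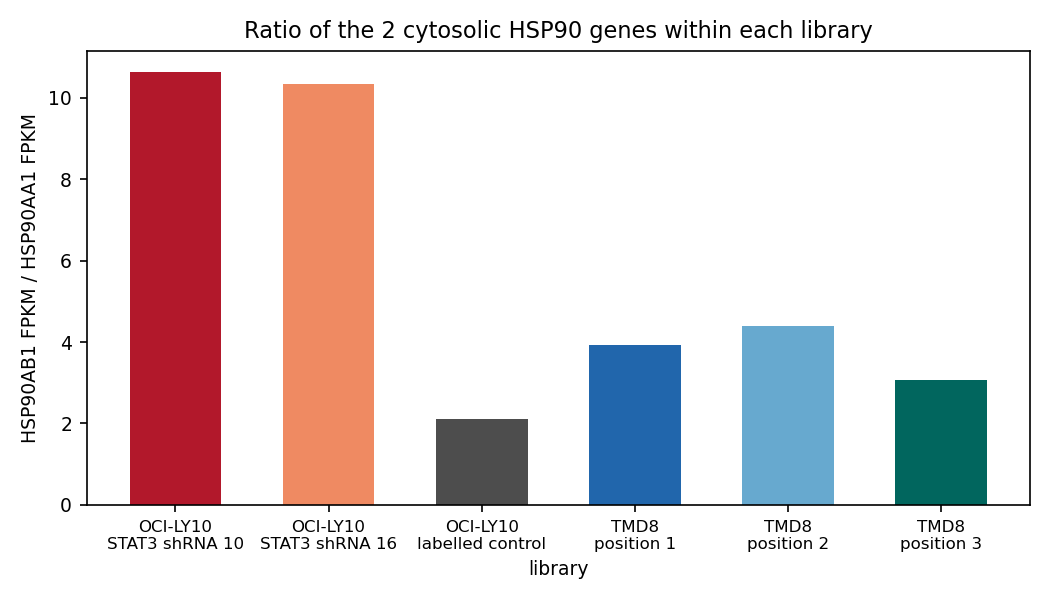
Ratio of HSP90AB1 to HSP90AA1 FPKM within each of the 6 libraries, on an axis that starts at 0. Each bar is 1 library, with no error because each is a single value. The STAT3 shRNA libraries reach 10.6 and 10.3, the library labelled control 2.12 and the TMD8 columns 3.08 to 4.40.

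HSPA8, the constitutive HSP70 of the cytosol, measured 2091 and 1813 FPKM with STAT3 shRNA 10 and 16, against 942 FPKM in the library labelled control. TMD8 columns held 172, 160.2 and 208 FPKM. It was higher with both shRNAs than in the library labelled control, and all 3 OCI-LY10 values were above all TMD8 values. The mean of 1952 FPKM ± 196 (SD, n = 2) was 207% of the library labelled control, a log2 difference of 1.05 (SE 0.15, limma adjusted p = 0.0324), which did not pass with low genes kept in the fit (adjusted p = 0.0794). In OCI-LY10 libraries HSPA8 ranked 51st and 62nd with the STAT3 shRNAs and 95th in the library labelled control among genes outside the small RNAs, and in TMD8 it ranked 326th to 414th. The tables are not known to share a scaling, so levels set across the lines are a description.

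HSPH1, an HSP110 that exchanges the nucleotide of HSP70, measured 72.2 and 62.5 FPKM with STAT3 shRNA 10 and 16, against 91.3 FPKM in the library labelled control. TMD8 columns held 28.7, 31.5 and 38.1 FPKM. Both shRNA values lay below that of the library labelled control, but the difference of -0.44 (SE 0.14) did not pass (limma adjusted p = 0.108).

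DNAJB1, the J-domain partner that delivers clients to HSP70, measured 41.2 and 36.0 FPKM with STAT3 shRNA 10 and 16, against 48.4 FPKM in the library labelled control. TMD8 columns held 15.1, 15.4 and 18.9 FPKM. These values had the same order as those of HSPH1, with a difference of -0.32 (SE 0.13) that did not pass (limma adjusted p = 0.165). The ratio of HSPA8 to HSPH1 was 28.95 and 29.0 with the STAT3 shRNAs, against 10.3 in the library labelled control, and 5.09 to 6.0 in TMD8. The ratio of HSPA8 to DNAJB1 was 50.7 and 50.4 with the STAT3 shRNAs, against 19.5 in the library labelled control, and 10.4 to 11.4 in TMD8.

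HSPD1 encodes HSP60, which forms the folding chamber of the mitochondrial matrix, and HSPE1 encodes HSP10, its lid. HSPD1 measured 606 and 543 FPKM with STAT3 shRNA 10 and 16, against 856 FPKM in the library labelled control, and 574, 482 and 579 FPKM in TMD8. HSPE1 measured 310.1 and 276 FPKM with the STAT3 shRNAs, against 335 FPKM in the library labelled control, and 140.5, 119.8 and 173 FPKM in TMD8. In both genes the library labelled control had the highest of the 6 values. The difference was -0.58 (SE 0.12, limma adjusted p = 0.0602) for HSPD1 and -0.20 (SE 0.12, limma adjusted p = 0.299) for HSPE1, and HSPD1 passed (adjusted p = 0.0301) when small RNA genes were left out of the fit. The ratio of HSPD1 to HSPE1 was 1.95 and 1.97 with the STAT3 shRNAs, against 2.55 in the library labelled control, and 3.35 to 4.09 in TMD8.

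HSF1, the factor known to bind heat shock elements, measured 43.9 and 45.0 FPKM with STAT3 shRNA 10 and 16, against 23.3 FPKM in the library labelled control. TMD8 columns held 40.4, 35.4 and 29.7 FPKM. The library labelled control was the lowest of the 6 and the STAT3 shRNA libraries were the highest. The mean of 44.4 FPKM ± 0.791 (SD, n = 2) was 190.3% of the library labelled control, a log2 difference of 0.90 (SE 0.09, limma adjusted p = 0.0204), and the call held in 9 of 9 alternative settings that gave a test. Expression of HSF1 is not its activity, which is set largely on the protein.

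HSPA1A and HSPA1B, near-identical genes for the heat-inducible HSP70, were listed at 0 FPKM in all 6 columns. The genes around them were listed at 0 as well. In the order of protein-coding genes of the RefSeq table, HSPA1A and HSPA1B lie in an unbroken run of 44 genes at 0 in every column, 20 before HSPA1A and 22 after HSPA1B, and the run is flanked by PRRC2A (at most 0.0165 FPKM) and PBX2 (at most 0.0308 FPKM). Of the 40 nearest neighbours 40 were at 0 everywhere, against 17.6% of the 18878 protein-coding genes matched to a row. The run holds genes that most cells transcribe, such as CLIC1, an intracellular chloride channel, LSM2, an RNA-binding protein, and NELFE, which pauses RNA polymerase II. A 0 of HSPA1A or HSPA1B is thus no measure of low expression, and no fold is given. HSPA1L, the third HSP70 gene of that cluster, was also at 0, and HSPA6, a heat-inducible HSP70 on another chromosome, had 0.0385 and 0.0263 FPKM with the STAT3 shRNAs, 0.114 FPKM in the library labelled control and 0.0476, 0 and 0.102 FPKM in TMD8.

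**Figure D4:**
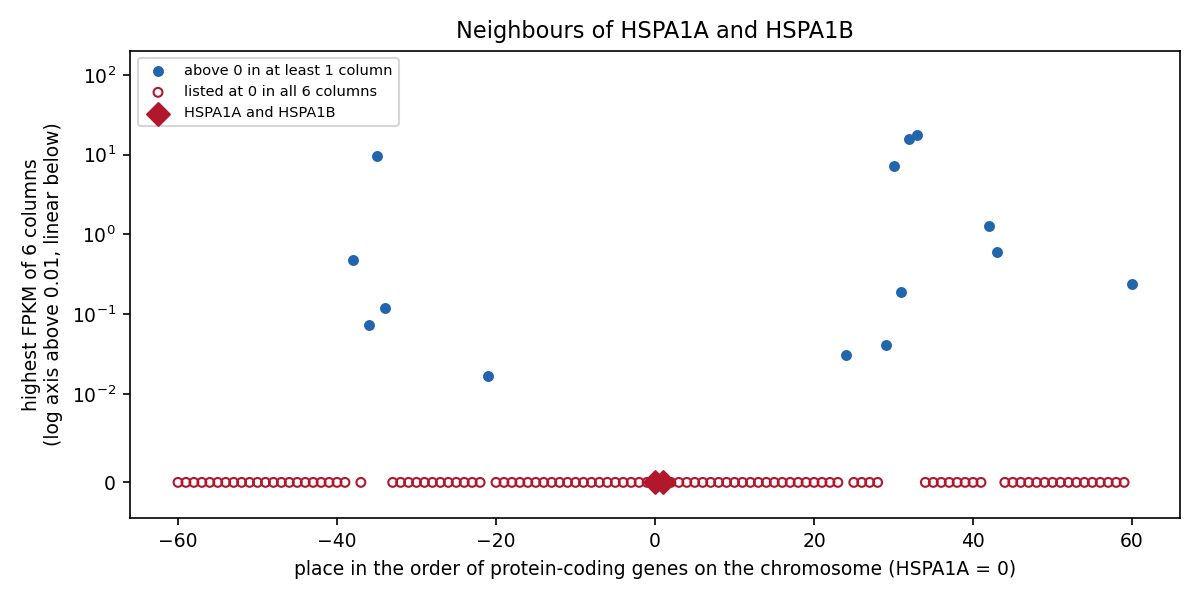
Highest FPKM over the 6 columns for HSPA1A, HSPA1B and the protein-coding genes around them, by place in gene order (HSPA1A at 0), on an axis that is logarithmic above 0.01 and linear below. Open circles are genes listed at 0 in all 6 columns, filled circles are genes above 0 and diamonds are the 2 HSP70 genes. Of 119 neighbours, 105 were at 0 and 5 reached 1 FPKM, with a highest value of 17.5 FPKM.

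Both STAT3 shRNA libraries were also set against each other. Of the 8 chaperone genes 0 differed past 1.5-fold between shRNA 16 and shRNA 10, beside 3.62% of 11162 genes (2.55% higher and 1.07% lower with shRNA 16). With 8 genes, a count of 0 is near that share. Log2 differences of the 8 chaperone genes, shRNA 16 minus shRNA 10, lay between -0.21 for HSPH1 and 0.04 for HSP90AA1, with 6 lower and 2 higher. The 2 higher, HSP90AA1 and HSF1, were at -0.02 each after rescaling to the FPKM sum outside small RNA genes, so their direction depends on the scaling. Over all genes tested the median absolute log2 difference was 0.12. HSPH1, HSPA8, DNAJB1, HSPE1 and HSPD1 differed by more than that, and HSP90AA1, HSP90AB1 and HSF1 by less. This comparison has 1 library on each side and no test.

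In TMD8, HSP90AA1 varied most among the chaperone genes. Its highest column was 1.82 times its lowest, against 1.45 times for HSPE1, 1.36 times for HSF1 and 1.2 times for HSPD1. Of the 8 chaperone genes 1, HSP90AA1, spanned more than 1.5-fold, beside 11.5% of 10888 genes of at least 1 FPKM on the mean. Column 3 was the highest for 7 of the 8 genes, the exception being HSF1, while 44.8% of all genes were highest there. Column 2 was the lowest for 5 of the 8, beside 29.3% of all genes. No test was made, because the columns carry no labels.

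Levels within a library followed a similar order throughout. HSP90AB1 came first in all 6 libraries, and HSPH1, DNAJB1 and HSF1 took the last 3 places. Second place went to HSPA8 in the 3 OCI-LY10 libraries and to HSPD1 in the 3 TMD8 columns, where HSPA8 came after HSPD1 and HSP90AA1. Some neighbours in the order did not differ beyond their spread. HSPE1 and HSP90AA1 overlapped with the STAT3 shRNAs, at 276 to 310.1 and 275 to 283 FPKM, and changed places between the libraries, as HSF1 and HSPH1 did in TMD8. The ranges of HSPA8 and HSPE1 overlapped across the TMD8 columns, but HSPA8 was the higher in each column. Together the 10 genes took 1.14% and 1.03% of the FPKM outside small RNA genes with the STAT3 shRNAs, against 0.747% in the library labelled control, and 0.306% to 0.402% in TMD8.

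The library labelled control was the highest of all 6 columns for 5 of the 8 genes (HSP90AA1, HSPH1, DNAJB1, HSPD1 and HSPE1), beside 14.9% of all genes tested. Its value was nearer to the TMD8 mean than to the STAT3 shRNA mean for 2 of the 8 genes, HSP90AB1 and HSF1, beside 61.2% of all genes tested. For 5 of the 8 (HSP90AB1, HSPA8, HSPH1, DNAJB1 and HSPE1) every OCI-LY10 value was above every TMD8 value, beside 22.5% of all genes tested. These shares are descriptions across tables that are not known to share a scaling.

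Other genes of the chaperone system were followed in 8 lists of 103 genes, of which 85 were tested. Of these, 8 (9.41%) were higher and 14 (16.5%) lower with the STAT3 shRNAs than in the library labelled control (limma), beside 20.3% and 17.4% of all genes, and the median difference was -0.08. Of the 85 tested genes 0 differed past 1.5-fold between shRNA 16 and shRNA 10 on log2(FPKM + 1), beside 3.62% of all genes. HSPB1 was at that limit, at 1.501 times on the FPKM scale. In the list results below, rose and fell mean higher or lower than in the library labelled control, whose label is in doubt.

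Among 25 co-chaperones of HSP90 and HSP70, 1 was higher, 3 were lower and 21 did not pass, with a median of -0.10. FKBP5, an immunophilin that binds HSP90, fell to 29.9 and 30.1 FPKM with STAT3 shRNA 10 and 16, against 82.6 FPKM in the library labelled control, a log2 difference of -1.43 (limma adjusted p = 0.0121). CHORDC1, an HSP90 co-chaperone, was the 1 that rose, at 38.9 and 32.3 FPKM against 17.3 FPKM. In TMD8, FKBP5 was at 71.2 to 89.7 FPKM and CHORDC1 at 8.59 to 10.3 FPKM. PIH1D1, a subunit of the R2TP complex, and BAG1, a nucleotide exchange factor of HSP70, also fell, by 0.93 and 0.64 on the log2 scale. PTGES3, the HSP90 co-chaperone p23 and the most abundant of the list, had 233 and 187 FPKM against 254 FPKM and did not pass (limma adjusted p = 0.314). AHSA1, which stimulates the ATPase of HSP90, had 96.7 and 77.9 FPKM against 153 FPKM and did not pass either (limma adjusted p = 0.0651).

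Of 14 J-domain genes, 3 were higher and 3 lower, with a median of 0.35. DNAJA1, a farnesylated partner of HSP70 and the most abundant of them, fell to 204 and 167 FPKM, against 401 FPKM in the library labelled control (log2 difference -1.11, limma adjusted p = 0.037). In TMD8 its columns held 81.6, 86.4 and 153 FPKM, and its highest was 1.88 times its lowest. DNAJB4 also fell, to 1.25 and 1.11 FPKM against 4.91 FPKM, and so did DNAJB6, which hinders protein aggregation. DNAJB2 rose to 14.6 and 18.8 FPKM, against 4.32 FPKM (log2 difference 1.72, limma adjusted p = 0.026), and DNAJC8 and DNAJC13 rose as well.

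Among the other HSP70 and HSP110 genes 4 of 9 were tested, with a median of -0.12. HSPA4L, an HSP110, fell to 4.22 and 3.74 FPKM against 7.52 FPKM, and HSPA4, the most abundant, had 102 and 92.8 FPKM against 116 FPKM (limma adjusted p = 0.175). HSPA4L had 6.82 to 7.43 FPKM in TMD8. Of 9 genes listed by name as small heat shock protein genes, 2 were tested and neither passed. HSPB1, which encodes HSP27, had 26.8 and 40.3 FPKM against 89.1 FPKM (limma adjusted p = 0.063), and HSPB11 had 99.5 and 98.6 FPKM against 79.7 FPKM (limma adjusted p = 0.0834). The median of these 2 genes was -0.55, from differences of -1.41 for HSPB1 and 0.31 for HSPB11. Whether HSPB11 acts as a small heat shock protein was not examined.

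In the TRiC chaperonin and prefoldin, which fold actin and tubulin in the cytosol, 1 of 13 tested genes was higher and 1 lower, with a median of -0.08. TCP1 rose to 213 and 196 FPKM against 111 FPKM, while CCT6A, another subunit of the same ring, fell to 94.6 and 78.1 FPKM against 169 FPKM. Across the TMD8 columns TCP1 had 81.0 to 94.8 FPKM and CCT6A had 96.9 to 121 FPKM. PFDN5 had 391 and 424 FPKM, against 430 FPKM in the library labelled control. The mitochondrial chaperones and proteases had 0 higher and 3 lower of 13, with a median of -0.34. AFG3L2, a protease of the inner membrane, fell to 23.6 and 23.8 FPKM against 77.3 FPKM (log2 difference -1.66, limma adjusted p = 0.0105). TRAP1, the HSP90 of mitochondria, fell to 56.3 and 59.5 FPKM against 134 FPKM, and LONP1, a protease of the matrix, fell to 62.8 and 72.5 FPKM against 128 FPKM. TMD8 held 87.8 to 89.6 FPKM of AFG3L2, 129 to 156 FPKM of TRAP1 and 83.9 to 102 FPKM of LONP1. HSPA9, the mitochondrial HSP70, had 191 and 171 FPKM against 223 FPKM and did not pass (limma adjusted p = 0.151).

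Of 5 tested genes among other heat shock factors and partners of HSF1, 1 was higher and 0 were lower, with a median of 0.25. HSF2, a related factor that can form trimers with HSF1, rose to 13.9 and 14.2 FPKM against 7.50 FPKM (log2 difference 0.82, limma adjusted p = 0.0257). Its TMD8 columns held 7.08 to 7.89 FPKM. HSBP1, a small protein that binds heat shock factors, had 53.5 and 52.2 FPKM against 50.9 FPKM. EEF1A1, also in this list, was listed at 8168 FPKM in TMD8 column 1 and at 0 in every other column. Its zeros are thus of uncertain meaning as well, and their cause was not tested. A list of genes known as HSF1 targets in heat-shocked human cells had 4 higher and 6 lower of 19 tested, with a median of -0.15. It leaves out the 10 chaperone genes but shares 13 of its 22 genes with the lists above, among them 2 of the 4 higher (CHORDC1 and TCP1) and 3 of the 6 lower (DNAJA1, DNAJB4 and HSPA4L). P4HA2, a collagen prolyl hydroxylase subunit, fell to 0.199 and 0.239 FPKM against 6.21 FPKM (log2 difference -2.57, limma adjusted p = 0.00733), and SERPINH1, the collagen chaperone HSP47, fell to 4.43 and 5.54 FPKM against 19.4 FPKM. In TMD8, P4HA2 was at 2.88 to 4.18 FPKM and SERPINH1 at 22.3 to 27.3 FPKM. Both act on collagen in the endoplasmic reticulum, and the fibroblast marker sum given above differed in the same direction, its part in these values not tested. UBB, a polyubiquitin gene, had 759 and 908 FPKM against 742 FPKM and did not pass (limma adjusted p = 0.495).

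**Figure D5:**
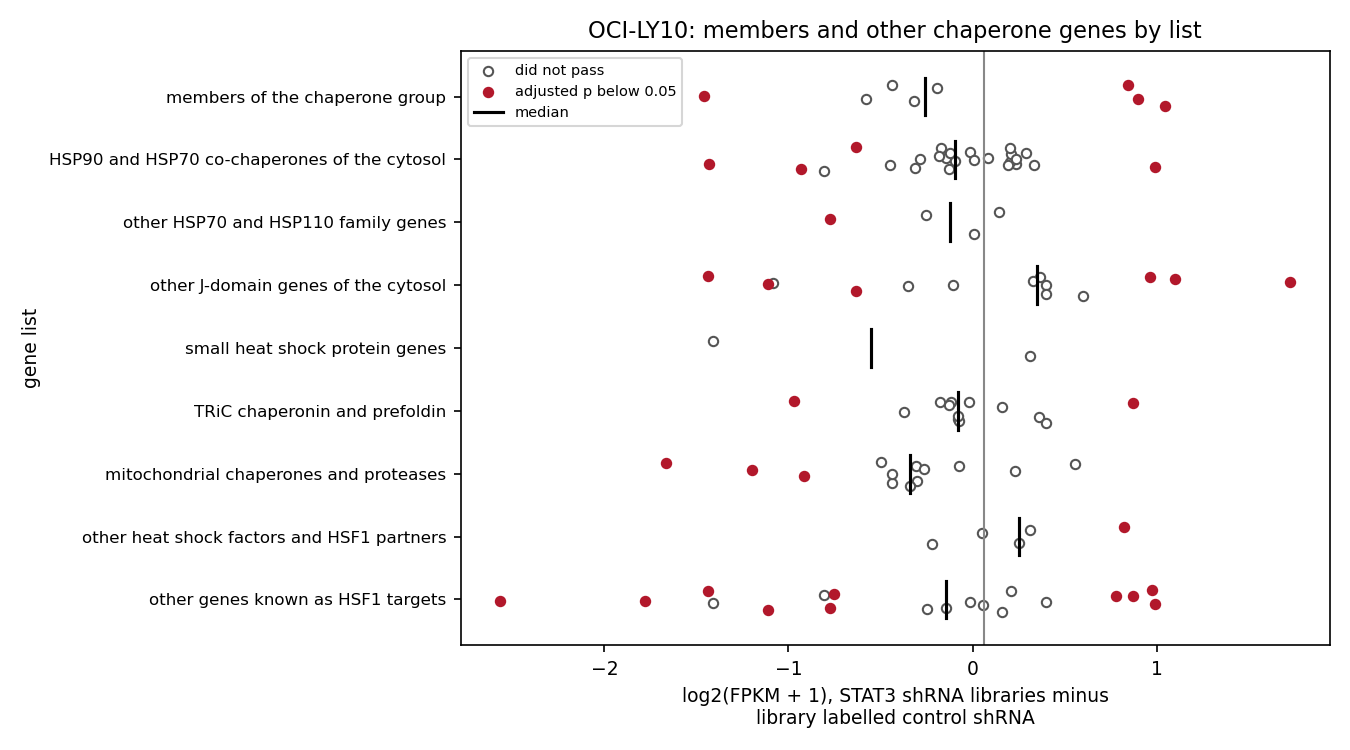
Difference of log2(FPKM + 1) between the STAT3 shRNA libraries and the library labelled control for the 8 tested genes above and for the 8 lists of other chaperone genes. Each point is a gene, filled where limma's adjusted p is below 0.05, black bars are list medians and the grey line is the median of all genes tested, 0.06. Every list with 5 or more tested genes has members on both sides of 0, and the lowest value is that of P4HA2, at -2.57.

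Profiles most like those of the 3 chaperone genes with the widest range in OCI-LY10 were found among 7214 genes, by Euclidean distance of log2(FPKM + 1) over the 6 columns after centring within each table. For HSP90AA1 these were MRPL32 at a distance of 0.239, SAMHD1 at 0.274 and MTERFD2 at 0.289, beside a median of 1.41 over all genes. For HSPA8 these were BUD13 at 0.0911, FAM120AOS at 0.105 and SYNC at 0.106, beside a median of 0.925. For HSF1 these were PQBP1 at 0.0613, CTDSP2 at 0.0763 and ADRM1 at 0.105, beside a median of 0.852. MRPL32, for example, had 36.3 and 37.6 FPKM with the STAT3 shRNAs, against 85.7 FPKM in the library labelled control, and 47.9, 43.2 and 73.2 FPKM in TMD8. Genes picked as the nearest of 7214 lie below the median distance by that choice, so the distances are a description only.

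Reads of several chaperone genes can be split with pseudogene copies of near-identical sequence. The RefSeq table names 28 pseudogenes of HSPE1, 22 of HSPD1, 20 of HSPA8, 6 of HSP90AB1, 5 of HSP90AA1 and 2 of DNAJB1, and 0 of HSPH1 and HSF1. Of all these, HSP90AB4P alone has a row in the tables, with 5.61 and 6.88 FPKM with the STAT3 shRNAs and 2.94 FPKM in the library labelled control. How the authors' counting treated reads that fit several places is not given in the sources used here, so the levels of the 6 genes with copies are uncertain to that extent.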

How the data were processed

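RNA-seq values of OCI-LY10 and TMD8 were used as the authors deposited them, as FPKM with 1 value per gene and library. Per the submitters' processing notes, Bowtie2 and TopHat were among the tools and hg19 was the build, with no version stated. What computed FPKM, from which annotation and with what regard to strand, is not given in the sources used here. TruSeq RNA kits were used, per the labels' protocols. The OCI-LY10 columns were matched to samples by name. The 3 TMD8 columns have no header, so they are given by position, enter no contrast, and the number of unused columns is 0. FPKM gives no absolute depth, so no counting interval is given; relative depth came from ratios of low values.

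Rows of repeated symbols were summed (25277 rows, 25275 symbols). Genes averaging 1 FPKM or more over the table were tested on log2(FPKM + 1) by limma 3.58.1 (R 4.3.3, moderated variances with a trend, two-sided p), a scale that understates the change of low genes, with 1 residual and 1.64 prior degrees of freedom. The script was tested on simulated data in which few genes changed and the control had the spread of the STAT3 shRNA libraries. Such a test does not show how reliable the calls of the real contrast are. Promoter motifs were searched in Python 3.11.15 with Biopython 1.88, and figures were drawn with matplotlib 3.10.9. The 10 genes and all lists were chosen with earlier results of these data known. Named were the 10 genes, STAT3, up to 3 called genes of largest difference and the most abundant gene of each list, and the 3 most alike profiles of the 3 widest-ranging genes. BAG1, AHSA1, DNAJB6, DNAJC8, DNAJC13, HSPB1, HSPA6, single marker genes and the neighbours of HSPA1A were named after their values were seen. Protein sequences were not used here. Alternatives were other pseudocounts, filters, scalings, a fit with no variance trend, the small RNA genes left out, HSPA1A and HSPA1B summed, and each STAT3 shRNA library left out. Rescaling to the FPKM sum outside small RNA genes was chosen after seeing the data.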

Additional observations from a re-analysis of the deposited data

How the results depend on the processing

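No called direction was reversed under the alternatives run. Summing HSPA1A and HSPA1B could change nothing, since both are at 0, and is left out of the counts here. HSP90AA1 and HSF1 passed in 9 of 9 alternatives with a test, and HSP90AB1 and HSPA8 in 8 of 9. Over all alternatives, log2 differences were -1.52 to -1.32 for HSP90AA1 and 0.80 to 1.04 for HSF1. They were 0.78 to 1.11 for HSP90AB1 and 0.94 to 1.19 for HSPA8. These ranges include leaving out either STAT3 shRNA library, which left 1 library on each side and no test. The low end for HSPA8 is such a value. Without the filter on low values 1299 genes were higher with the STAT3 shRNAs and 1 of the chaperone genes (HSF1) was. With a mean of at least 5 FPKM 1178 genes were lower, and with small RNA genes left out 2 chaperone genes (HSP90AA1 and HSPD1) were lower. Between shRNA 16 and shRNA 10, 708 genes passed 1.5-fold with a pseudocount of 0.1 FPKM, 238 with 5 FPKM and 224 with small RNA genes left out, against 404. In TMD8, 555 genes did with a pseudocount of 5 FPKM, against 1247. The cause of these changes was not tested. Of all alternative values for the comparisons 52 stayed alike and 8 moved, and of those for single genes 189 stayed, 5 lost and 1 gained a call. Part of the values that stayed could not have come out otherwise, so these counts do not measure stability. When 1 STAT3 shRNA library was left out, only a reversal of a called gene could be marked. Ratios of single genes between libraries do not change when small RNA genes are left out. Rescaling to the FPKM sum outside small RNA genes, chosen after seeing the data, moved the median difference of all genes to 0.19, against 0.06, and turned the uncalled differences of shRNA 16 minus shRNA 10 to -0.02, against 0.04, for HSP90AA1 and HSF1, so that 8 chaperone genes were lower. No paired analysis was possible because the library labelled control has no second replicate and shares no pair of numbers with the STAT3 shRNA libraries. With 1 control library its spread could not be measured, and low genes such as HSPA6 are limited by a depth that the files do not state.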
